A study of Mus musculus with 2 samples.

Results

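The 851 regions described here were peaks of an ELAVL2 RNA immunoprecipitation from newborn mouse ovary whose summit lay in the first 10% of the 1 gene that the peak overlapped. RNA immunoprecipitation with sequencing (RIP-seq) pulls a protein out of a lysate with an antibody, sequences the RNA that comes with it, and compares that RNA with the whole lysate (the input). The series held 1 ELAVL2 RIP library and 1 input library, both from ovaries of mice on the day of birth (P0). The lysate came from 100 pooled ovaries, the RIP used 5 ug of antibody, and the input was 5% of the starting material. The labels used here give no genotype, strain or control pulldown, so RNA held by ELAVL2 and RNA retained in other ways cannot be told apart. Peaks were called on pooled lanes, from 13787676 RIP tags and 19479946 input tags kept after removal of tags at the same position. With 1 library per arm there was no replicate check, and no p-value across peaks is given. Each percentage below has an exact Clopper-Pearson 95% interval where one is printed, and it covers counting error only.

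A peak was taken when it lay on an autosome, when exactly 1 gene of the authors' table held it inside or across an edge, and when its summit fell between the annotated start of that gene and 10% of the way to its end, read along the gene's strand. Of 28332 called peaks, 18333 lay on autosomes in exactly 1 gene, in 4932 genes. Those in the first 10% numbered 851, which is 4.64% (4.34 to 4.96%) of the single-gene peaks, and they fell in 555 genes. When only peaks paired with 1 gene in the whole table were admitted, neighbouring genes counted, that share was 10.8%. By comparison, 8546 single-gene peaks (46.6%) fell in the last 10% by their summit and 8900 (48.5%) lay between. No measured height or enrichment entered this choice. The nearest peaks inside the limit were in Gnb1l at 9.998% of the body and Dcun1d5 at 9.993%, and the nearest outside were in Slc16a10 at 10.0% and Lama2 at 10.02%. All 19 autosomes held such peaks, from 19 on chromosome 18 to 81 on chromosome 2.

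ELAVL proteins, also called Hu proteins, are RNA-binding proteins known for attaching to U-rich and AU-rich stretches, mostly in the ends of messenger RNAs and in introns, where they affect stability, translation and splicing. ELAVL2 is found in neurons and in germ cells. The first 10% of a gene holds the start of transcription, the first exon with the 5′ leader, and in long genes mostly the first introns, which are spliced out of the mature message. A peak list in genome coordinates does not tell an exon from an intron. The members were therefore split by distance: a summit under 1 kb from the annotated start, or farther in.

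The bases under 13 of the 851 member summits are shown first. They can be set beside the U-rich RNA that the family is known for. A RefSeq start window ran from 250 bases before to 50 after a start (build GRCm38.p6, which is mm10). For 13 members in 13 genes, such a window of the same gene held the 30 bases centred on the summit. The summits of the other members were not read, so these stretches do not describe the members as a whole. Some of the 13 summits lay before the RefSeq start of the window, as in Ybx2 (-143 bases) and Nutf2 (-203 bases). By the start in the authors' table, these summits of Ybx2 and Nutf2 lay 389 and 38 bp inside the gene. Shown are 6 of the 13 stretches with a large -log10 q, then the one with most T and the one with most G and C. They read as follows on the gene's strand, with runs of 3 or more T in capitals.
Ybx2 (chr11:69936170-69936199, plus strand): acccctggcaaccaggcgacggcggcctcg
Oard1 (chr17:48410319-48410348, plus strand): cccgaacccttccctgcttggaggagggcc
Tex12 (chr9:50561239-50561268, minus strand): ggcaggtcgtggccgaatctccgcttgcga
Nutf2 (chr8:105860657-105860686, plus strand): accgcgctgggttgccgccgccgctgccgc
G3bp2 (chr5:92083551-92083580, minus strand): cgcgacactactgacctccgcgcgacgtgc
Lsm3 (chr6:91516030-91516059, plus strand): gaggtggaaagggcgcagcgTTTgaaacat
Snrpd3 (chr10:75518062-75518091, plus strand): tctcgccttcgccttctaacgTTTgtgcca
Spats2 (chr15:99126696-99126725, plus strand): gtgggggcggggcggctcggcgtcgggcct
All 13 stretches had more than 50% G and C, with a median of 70.0% and a range of 53.3 to 86.7%. The median T content was 16.7%, the highest was 36.7% in Snrpd3, 3 of 13 held a run of 3 T, and none held a run of 4 or more. In the 4871 start windows of genes with a single-gene peak, the last 50 bases had medians of 66% G and C and 18% T. Over all 32851 windows those medians were 56% and 22%. The 13 stretches were thus nearer to start windows of genes with a single-gene peak than to all windows. Some of the 13 summits lay outside the last 50 bases of their window, so the places compared differed in part.

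Ybx2, a Y-box protein that packages messenger RNA in germ cells, had a RIP pileup (overlapping tags at the summit) of 24 over an input level of 2.83, a fold enrichment of 6.53. The input level is the local background that the peak caller used, in tags scaled to the RIP, and the fold is the ratio of pileup to that level after 1 was added to both. Tex12, a protein of the synaptonemal complex, had a pileup of 34 over 7.08, a fold of 4.33, with its summit 15 bp from the annotated start. RefSeq also has a protein-coding gene, Il18, over this summit. Spats2 had a pileup of 25 over 10.6, a fold of 2.24. Among these starts the fold ran from 1.85 in Cdv3 to 6.53 in Ybx2.

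A base content rich in T, away from the summit, was read in the peak of Gtf2a1. This gene encodes a large subunit of the transcription factor TFIIA. Its member peak had a pileup of 24 over 5.66 (fold 3.75), 918 bp inside the annotated body, and it crossed another RefSeq start of the gene. The 30 bases of the peak with most T there are shown because this was the peak with the highest T content among those in the start windows.
Gtf2a1 (chr12:91589625-91589654, minus strand): TTTTTTTTTTTTTTTcTTTTTTTTTTTTTT
T made up 83.9% of the 56 bases of that peak inside the window. The summit, at 91589569, lay outside these 56 bases and outside the 30 shown. Over all 21 overlaps of at least 30 bases between a member and a start window of its own gene, in 17 genes, the median was 17.8% and the next highest value 27.3%.

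A set of 5 short words was searched in whole start windows on both strands: TTTTTTT and TTTATTT for U-rich RNA, ATTTA for the AU-rich element, AATAAA for the poly(A) signal and GGGCGG for the GC box. None of the 5 contains another, although matches can share bases. A window counted as under a member at any overlap with a member of its gene, as small as 2 bases in Tmem243. Bases of such a window outside the peak were searched too. On the gene's strand, TTTTTTT stood in 3 of 38 windows under a member (7.89%). It stood in 5.54% of the 4871 windows of genes with a single-gene peak and in 6.36% of all 32851 windows. ATTTA stood in 1 of 38 (2.63%), against 13.8% of the 4871 windows of genes with a single-gene peak and 20.3% of all windows. GGGCGG stood in 18 of 38 (47.4%), against 40.6% and 23.4%. On the other strand, ATTTA stood in 5 of 38 (13.2%), against 14.0% and 21.1%. GGGCGG stood there in 13 of 38 (34.2%), against 38.0% and 21.3%, and TTTTTTT in 2 of 38 (5.26%), against 4.58% and 6.12%. TTTATTT was found in 0 of 38 windows on the gene's strand, against 2.67% and 5.00%. On the other strand it was in 2 of 38 (5.26%), against 3.04% and 5.04%. AATAAA was found in 4 of 38 (10.5%) on the gene's strand, against 6.71% and 11.3%. On the other strand it was in 0 of 38, against 6.24% and 10.5%. The median G and C content was 62.7% in the 38 windows, 61.0% in those of genes with a single-gene peak and 52.7% over all windows. Those of genes with a single-gene peak include the member genes, and with 38 windows under members the counts of 0 to 5 are small.

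Within the first 10%, summits were most frequent at the very start. The first 1% of the body held 182 of 851 summits (21.4%) and the second 1% held 109, after which each further 1% held between 60 and 77. In bases, 67 summits lay under 100 bp from the start, 176 under 250 bp, 337 (39.6%, 36.3 to 43.0%) under 1 kb and 580 (68.2%) under 5 kb. The remaining 514 members lay 1 kb or more from the start, and the rule sets their gene length, since 1 kb can lie in the first 10% only of a body of 10 kb or more. The median body was 24.4 kb for the near members and 125 kb for the far ones. The near members fell in 295 genes and the far ones in 291, with 31 genes in both.

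**Figure D1:**
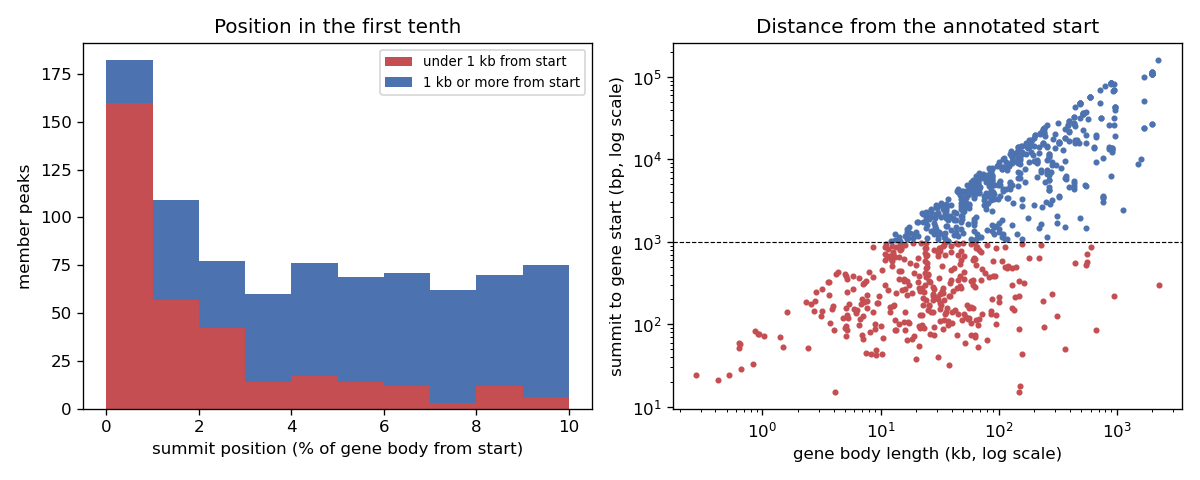
Left, number of member peaks in each 1% of the gene body (percent from the annotated start), stacked by distance of the summit from the start. Right, distance from start to summit in bp against gene body length in kb, 1 point per member, both on log scales, with a dashed line at 1 kb. The first 1% holds 182 peaks, and the upper edge of the cloud is the 10% limit.

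Near and far members differed in tag depth more than in -log10 q. The near members had a median pileup of 26 over a median input level of 7.08, and the far members 14 over 2.12. Their median folds were 3.26 and 4.51, while the median -log10 q was 4.05 and 4.32. A fold of at least 5 was reached by 275 of 851 members (32.3%, 29.2 to 35.6%), against 20.7% of all autosomal single-gene peaks. Among the 403 members with a pileup of at least 20 it was 10.7%. Over all pileups the share was 23.4% for near members, 38.1% for far members, 28.9% for peaks in the middle of genes and 10.95% for peaks in the last 10%. A pileup of at least 20 went the other way: 68.2% of near members, 33.7% of far members, 52.0% of middle peaks and 81.2% of peaks in the last 10%.

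The input level is the denominator of the fold, and all peaks passed the same q cutoff, so the fold that a called peak can show depends on that level. Where the input level was at most that of 1 input tag (0.708 after scaling), the median fold was 5.76 for members, 5.85 for middle peaks and 5.85 for peaks in the last 10%. Where it was over 10, the medians were 2.34, 2.35 and 2.33. At 3 to 10 they were 3.48, 3.47 and 3.48. These medians are given as values only, since both quantities come from the same ratio. Of the members, 199 (23.4%) had an input level of at most 1 tag. The share was 21.2% for middle peaks, 4.56% for peaks in the last 10% and 13.5% for all single-gene peaks. Of the 199 members, 66 were at the genome-wide background level of 0.369. A low input level also sets a floor on the fold, which was at least 3.65 for every called peak at the background level.

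**Figure D2:**
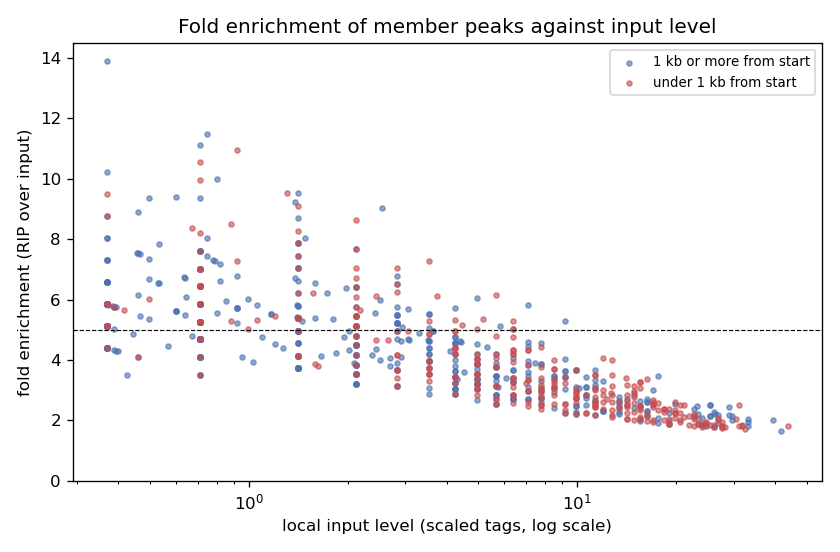
Fold enrichment of each member peak against its local input level (scaled tags, log scale), coloured by distance from the gene start, with a dashed line at a fold of 5. Folds above 8 occur only at input levels under 3 tags, and members with an input level over 10 all stay under a fold of 5.

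Gene length moved with the same values. In genes under 20 kb, the median pileup of 157 members was 30 and their median fold 3.05, and middle peaks of such genes had 29 and 3.05. In genes over 200 kb, the 205 members had medians of 13 in pileup and 4.97 in fold, and middle peaks 12 and 4.97. Peaks in the last 10% stood apart in pileup at every length, with medians of 37, 37, 33 and 24 from the shortest to the longest class. In genes of 20 to 50 kb, members had a median pileup of 22 and middle peaks 26, and in genes of 50 to 200 kb the medians were 14.5 and 17. Within a length class the members also differed by distance, with medians of 22.5 for near and 13 for far members at 50 to 200 kb.

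In most genes that held peaks at both ends, the best peak at the end was deeper and the best peak at the start had the larger fold. A peak in the last 10% was found in 315 of the 555 member genes (56.8%, 52.5 to 60.9%): 210 of 295 genes with a near member (71.2%) and 125 of 291 with a far one (43.0%). Of the 3377 genes with a middle peak, 45.6% had one. Of all 4932 genes with a single-gene peak, 2976 had one, so the member genes did not stand above genes with a single-gene peak in general. The share of member genes rests on how peaks were admitted, since it was 18.5% when only peaks paired with 1 gene in the whole table were used. Among the authors' pairs, 80.4% of members were paired with 1 gene, against 43.6% of middle peaks and 20.7% of peaks in the last 10%, because neighbouring genes listed as upstream or downstream also count there. Taking the peak with the largest -log10 q at each end, the pileup was higher at the end of the gene in 281 of 315 genes and higher at the start in 30. The median pileups were 23 at the start and 43 at the end. The fold was higher at the start in 200 genes and at the end in 113, with medians of 3.69 and 2.97. The -log10 q, by which the peaks were picked, was higher at the end in 210 genes and at the start in 102. The ends did not hold equal numbers of peaks to pick from. Celf2 had 5 at the start and 22 at the end, and Macrod2 had 11 and 2. The part played by these numbers in the counts was not tested. The input level was higher at the end in 261 genes, with medians of 5.66 at the start and 14.2 at the end. Libraries were made from amplified antisense RNA, and the part played by that step in the lower depth at gene starts was not tested.

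**Figure D3:**
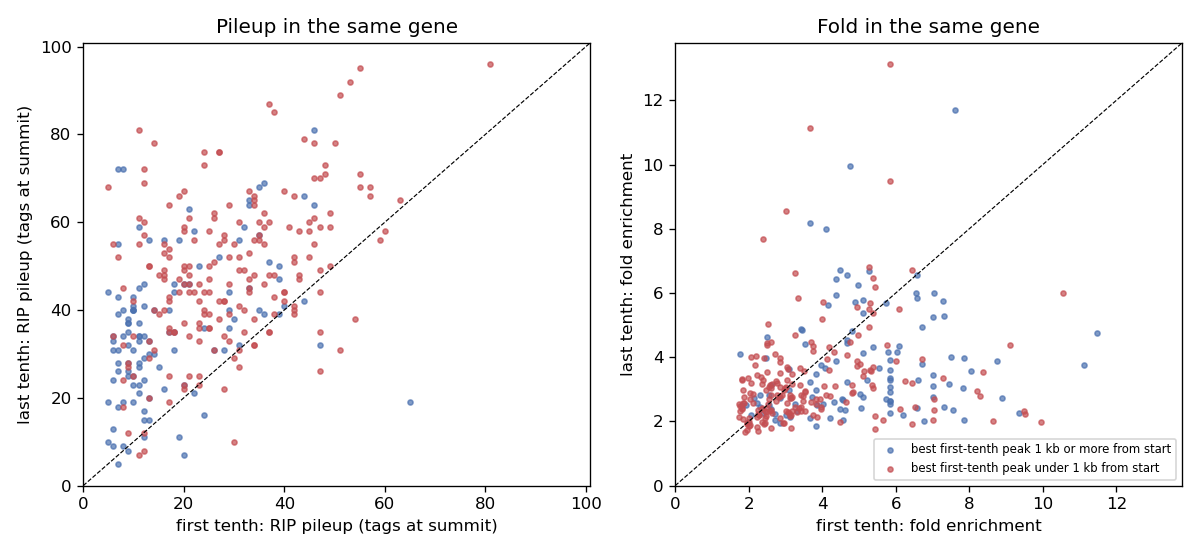
For the 315 genes with single-gene peaks in both the first and the last 10%, the RIP pileup (left, tags) and the fold enrichment (right) of the best peak at each end, 1 point per gene, with a dashed line of equality. Most points lie above the line for pileup (281 genes) and below it for fold (200 genes).

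For 106 of the 555 genes (19.1%) the first 10% was the only stretch with a single-gene peak. They were 31 of the genes with a near member and 78 of those with a far one. The member was the peak with the largest fold in its gene in 279 of 851 cases. In the 106 genes with no other stretch, a member had to rank first.

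The largest folds at a pileup of at least 20 came from both sides of the 1 kb line. Lrba, a protein of vesicle trafficking, led with a pileup of 20 over an input level of 0.920 (fold 10.9) at 571 bp from its start, chr3:86225215-86225278. Its second member, 717 bp in, had a pileup of 18 over 1.42 (fold 7.87). Slx4ip, a partner of the SLX4 nuclease scaffold, had a pileup of 21 over 1.31 (fold 9.53) at 644 bp. Ube2q2, a ubiquitin-conjugating enzyme, had 26 over 2.12 (fold 8.64) at 939 bp. Tmem243, a membrane protein, had 32 over 3.54 (fold 7.27) at 157 bp and 40 over 5.66 (fold 6.15) at 596 bp. Rab22a, a small GTPase of endosomes, had 26 over 2.83 (fold 7.05) at 275 bp. The input level of these 7 peaks ran from 0.920 to 5.66, so the order of their folds followed neither the pileup nor the distance from the start alone. Pcyox1l had 4 members between 298 and 853 bp from its start, with folds from 5.34 to 9.11.

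Farther in, Mms22l, a factor of DNA repair at replication forks, had the largest -log10 q among members in genes with an approved symbol, 17.5, with a pileup of 31 over 2.55 (fold 9.02). It was 1 of 4 members of that gene between 7592 and 8190 bp, and Mms22l held no single-gene peak elsewhere. Smg6, the endonuclease of nonsense-mediated decay, had 6 members between 20690 and 23131 bp from its start. Their pileups stayed between 17 and 22. The lowest fold, 3.97, had an input level of 3.54, and the highest, 9.52, one of 1.42. Scfd2 had 4 members 15631 to 16390 bp in, with folds of 3.75 to 8.69. Camta1, a calmodulin-binding transcription activator, had a pileup of 53 over 9.20 (fold 5.29, -log10 q 17.3) at 69467 bp and a pileup of 52 over 12.0 (fold 4.07) at 218 bp. Wdr70 had a pileup of 46 over 7.08 (fold 5.82) at 7402 bp. Prkar2a, a regulatory subunit of protein kinase A, had a pileup of 18 over 0.708 (fold 11.1) at 5557 bp. Below the pileup of 20 the largest fold of all members was 13.9, in A830008E24Rik, with a pileup of 18 over the background level of 0.369; this gene is named after its value was seen. The largest pileup of a member was 81, in Ptma (over 43.9, fold 1.83) and Bri3 (over 39.6, fold 2.02), both named after their values were seen.

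Most member genes held 1 member, and some held groups. The 851 members lay in 555 genes, and all 18333 autosomal single-gene peaks lay in 4932 genes. Of the 555 genes, 415 had 1 member, 76 had 2, 41 had 3 or 4, and 23 had 5 or more; those 23 held 138 of the 851 members. Peaks of 1 gene can come from the same RNA and are not independent of each other. When neighbours within 500 bp were counted as 1, the first 10% held 5.76% of the single-gene peaks.

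Macrod2, an ADP-ribose hydrolase in a body of 1997658 bp, had most, 11, at 26540 to 115134 bp from the start, with folds of 3.20 to 7.53 and pileups of 4 to 33. Gpr137c had 8 members between 633 and 3914 bp. The one nearest the start had a pileup of 48 over an input level of 24.8 (fold 1.90), and the other 7 had pileups of 26 to 40 over 5.31 to 11.3 (folds 3.33 to 4.55). On the opposite strand next to it, Ero1l, an oxidoreductase of the endoplasmic reticulum, had 7 members between 1535 and 2875 bp, with pileups of 9 to 32 and folds of 3.48 to 5.07. Hs3st3a1, a heparan sulphate sulfotransferase, had 7 members within 1292 bp, with pileups from 13 to 24. Their folds lay between 3.97 and 5.40. Gnb1l had 7 members, of which the first, at 4386 bp, had a pileup of 72 over 29.0 (fold 2.43) and the others pileups of 18 to 29 over 3.04 to 9.91.

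Got2, the mitochondrial aspartate aminotransferase, had 6 members from the start inward. At 195 bp, over the annotated start itself, the pileup was 53 over an input level of 20.5 (fold 2.51). At 376 bp it was 50 over 14.0 (fold 3.39), and at 480 bp it was 39 over 12.7 (fold 2.92). At 852, 972 and 1464 bp the pileups were 25, 34 and 21 over input levels of 7.01, 7.08 and 5.66. RIP pileup and input level thus both stood higher nearest to the start, while the fold did not follow the distance. Only 8 members overlapped an annotated start, among them Lsm1, a subunit of the ring that binds decapping substrates, with a pileup of 32 over 9.91 (fold 3.03), and Cdca4, with 11 over 2.12 (fold 3.84).

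**Figure D4:**
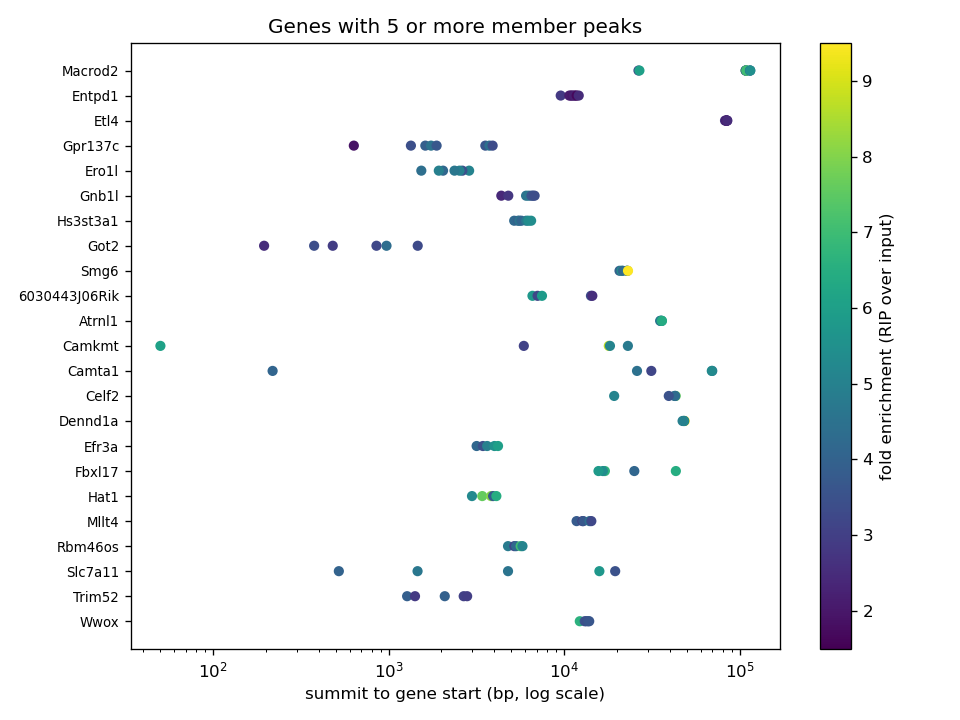
Distance from gene start to summit (bp, log scale) for every member of the 23 genes with 5 or more, 1 row per gene, coloured by fold enrichment. Got2 and Gpr137c lie near the start, Macrod2, Etl4 and Camta1 reach far into the body, and the largest fold shown in the top genes is that of Smg6 (9.52).

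A pair of these groups was nearly the same series seen in 2 places. Entpd1, the ectonucleotidase CD39, on chromosome 19 and Etl4 on chromosome 2 each had 8 members, and all 16 lay over a RefSeq pseudogene inside the gene, Gm8783 in Entpd1 and Gm13363 in Etl4. The pileups in order along the genes were 32, 51, 56, 61, 64, 59, 70 and 65 in Entpd1. In Etl4 they were 23, 50, 56, 60, 61, 59, 69 and 65. The 2 series spanned 2551 and 2526 bp, their offsets differed by at most 25 bp, 7 of 8 pileups differed by at most 3, and 2 of 8 peaks had the same pileup and fold. Input levels were 10.6 to 41.8 and 7.79 to 33.3, high for far members, and folds were 1.66 to 2.84 and 2.04 to 2.73. Whether the same tags were placed at both copies was not tested. Without these 2 genes 835 members in 553 genes remained.

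**Figure D5:**
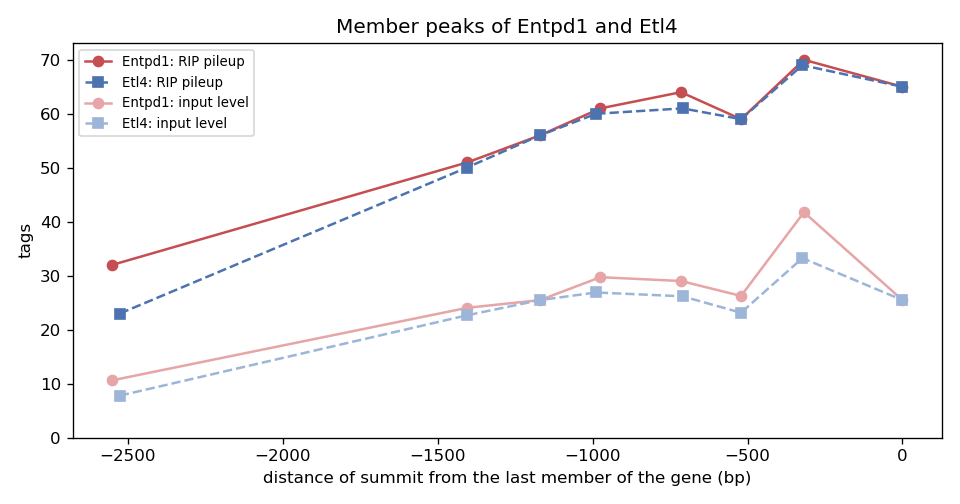
RIP pileup and input level (tags) of the 8 members of Entpd1 and of Etl4 against the distance of each summit from the last member of that gene (bp). The lines of the 2 genes nearly coincide in RIP pileup, and both end at 65.

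In all, 72 members (8.46%) had another RefSeq gene over the summit: a pseudogene in 26, a long noncoding RNA in 25 and a protein-coding gene in 21. The Entpd1 and Etl4 peaks made up 16 of the 26. Another 2 lay in Tenm4, an adhesion protein of long body, over the pseudogene Gm8319, with pileups of 61 and 66 over 33.3 (folds 1.81 and 1.96). All 4 members of Mipol1 lay over Prps1l3. Members named elsewhere in the text included Tex12 over Il18, Ptprd over B230208B08Rik, and Camta1 at 218 bp over Gm42357. Reads of such copies or overlapping genes and of the host gene cannot be told apart in these files.

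Annotated gene bodies differed between sources for some members. RefSeq held 536 of the 555 genes, 497 of them protein-coding, 27 long noncoding and 12 pseudogenes. By RefSeq bodies, 743 members (87.3%) stayed in the first 10% of their gene, 60 moved to the middle, 4 to the last 10%, 19 fell outside, and 25 had no match. The body in the authors' table was over 1.5 times the RefSeq length in 27 genes. Chd1, a chromatin remodeller, had the same start in both sources, but a body of 1689932 bp in the table and 67646 bp in RefSeq. Its 4 members stood 24007, 24184, 51013 and 100708 bp from the start. None of them lay in the first 10% of the RefSeq body, and the last was beyond it, over the protein-coding gene Rgmb. The member at 24184 bp had a pileup of 19 over 0.743 (fold 11.5). All 5 members of Celf2, an RNA-binding splicing and decay factor, lay before the RefSeq start, at input levels of 0.369 to 0.708 and folds of 3.51 to 7.61. Celf2 also had 22 peaks in the last 10%, with pileups up to 58, where its members reached 12.

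The near members were defined by the start in the authors' table, so their distance to a RefSeq start of the same gene compares only the 2 annotations. Leaving out chromosome 18, which the start table lacks, 252 of 327 near members (77.1%) lay within 1 kb of a RefSeq start of their gene. A start of another gene on the opposite strand lay within 1 kb of 62 near members (19.0%) and of 4 far members (0.792%). For those 62 the strand of the RNA is not in the peak list, so the paired gene and its divergent neighbour cannot be told apart.

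The genes of fixed lists were then counted, beside the 11.3% of genes with a single-gene peak that held a member. These shares have no test, and the longest and most peak-rich genes have more chances to hold one. Of RNA-binding proteins of germ cells and translation, 9 of the 37 with a single-gene peak (54 listed) held a member. Dazl, a translational activator of germ cells, had a pileup of 50 over 15.6 (fold 3.08) at 102 bp. Cpeb4, a poly(A) regulator, had 10 over 0.708 (fold 6.44) at 75 bp. G3bp2, a stress granule protein, had 14 over 1.42 (fold 6.21) at 846 bp and 31 over 9.91 (fold 2.93) at 154 bp. The RefSeq body of G3bp2 reaches farther upstream, to 92137725, although a RefSeq start of the gene lay 33 bases from the latter summit. Another RefSeq gene, Gm46933, lay over both summits. Igf2bp3, an RNA-binding protein that stabilises messages, had 30 and 26, both over 11.3, within 477 bp of its start. The other genes were Celf2, G3bp1, Rbpms2, Ybx2 and Ybx3.

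Meiosis genes held members in 5 of 14 (36 listed). Hormad1, a protein of the meiotic chromosome axis, had a pileup of 16 over 0.708, a fold of 9.95, at 218 bp, and it was the best peak of the gene. Hormad2, of the same axis, had 6 over 0.369 (fold 5.11) at 129 bp. Msh4, a crossover factor, had 32 over 8.49 (fold 3.48) and 22 over 4.96 (fold 3.86) about 2 kb in, at 2068 and 1882 bp. Sycp1, the transverse filament of the synaptonemal complex, had 22 over 5.66 (fold 3.45) at 3409 bp and 8 over 0.708 (fold 5.27) at 7476 bp. Sycp1, Msh4 and Hormad2 had no single-gene peak in their last 10%, while Hormad1 and Tex12 had one or more.

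Oocyte and follicle genes held members in 5 of 10 (29 listed). Foxo3, a transcription factor that keeps follicles dormant, had 21 over 7.08 (fold 2.72) at 1566 bp. Lhx8, an oocyte transcription factor, had 33 over 7.79 (fold 3.87) at 2268 bp. Jag1, a Notch ligand, had 8 over 0.708 (fold 5.27) at 994 bp and 17 over 4.96 (fold 3.02) at 134 bp. Uchl1, an abundant ubiquitin hydrolase of oocytes and neurons, had 55 over 27.6 (fold 1.96) at 935 bp. The high pileup of Uchl1 went with a high input, and its fold was the lowest of the peaks named for this list.

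Genes of P-bodies and mRNA decay held members in 4 of 30 (46 listed): Smg6, Tnrc6a, Btg4 and Cnot1. Cnot1, the scaffold of the deadenylase complex, had 9 over 0.708 (fold 5.86) at 4900 bp, its only single-gene peak. Btg4, which recruits that complex in oocytes, had 29 over 11.3 (fold 2.43) at 103 bp from the start in the authors' table. The RefSeq bodies of Btg4 and Tnrc6a begin farther upstream, at 51102147 and 123031101. By these bodies both members lay in the middle of the gene. Splicing regulators held members in 3 of 23 (48 listed), with folds of 3.15 in Qk, 3.10 in Ptbp2 and 2.01 in Srsf9. Chromatin and histone methylation genes held members in 3 of 28 (50 listed). They were Chd1, by the gene body in the authors' table only, Chd2 (13 over 2.12, fold 4.48) and Setdb1 (8 over 0.708, fold 5.27). Of neuronal and adhesion genes of long bodies, 7 of 29 (35 listed) held 26 members, 11 of them in Macrod2 and 5 each in Camta1 and Wwox. The longest of these bodies, Ptprd at 2270724 bp, had its member 296 bp from the start (11 over 1.42, fold 4.97).

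Over all autosomal RefSeq genes 10.1% held a single-gene peak, and 21.3% of the protein-coding ones did. Cytosolic ribosomal protein genes held no member, and only 1 of the 58 listed held a single-gene peak at all. Somatic and blood marker genes held none, with a single-gene peak in 3 of 40. Among marker genes of cell types, 4 of 8 for oocytes (Dazl, Ddx4, Kit and Lhx8) held 32 single-gene peaks, and Dazl and Lhx8 held members. Single-gene peaks were found in 0 of 5 granulosa, 0 of 4 stroma and 0 of 3 blood markers, and in 1 of 3 endothelial markers, Tek. A peak reports RIP over input and not the level of the gene, so these counts describe only which markers held one.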

How the data were processed

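The submitters' processing notes name TopHat2 2.0.8b, MACS2 2.1.0.20140616 and mm10. The authors joined 3 lanes of RIP and 3 of input per the file headers, extended tags to 50 bp, kept 1 tag per position and called peaks at q 0.05, with local input windows of 1000 and 10000 bp. The caller takes no account of splicing or strand, and 1 tag per position limits the depth of abundant RNAs (largest pileup 97). The signal (pileup at the summit), the fold (a ratio with a pseudocount of 1), and the -log10 p and -log10 q are the authors' deposited values. The steps behind the authors' deposited gene table are not stated in the labels; of its 85730 rows, 43554 were distinct.

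The input level was computed from pileup and fold, and positions from summit, start, end and strand. Gene names and start windows came from RefSeq tables of GRCm38.p6. Members, gene lists and tests were chosen with earlier results of these data known. Named were, among genes with an approved symbol: the 10 members largest in fold with a summit pileup of 20 or more, the 10 largest in -log10 q, the 5 genes with most members, up to 5 over the start, the 5 nearest inside and outside 10%, the 5 shortest and 5 longest bodies, the 5 with most peaks in the last 10%, and up to 3 per list. Others, such as those shown for their start sequence or for a pseudogene, were chosen after their values were seen. Some items that these rules name are not reported here. Scripts were tested on simulated data. Alternatives changed the limits, the peaks admitted and the gene bodies; those with summits before the start and without Entpd1 and Etl4 were added after seeing the data. Computation used pandas 2.3.3 and numpy 2.4.6 in Python 3.11.15, with scipy 1.17.1 for intervals and matplotlib 3.10.9 for plots. No genome or exon models were used.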

Additional observations from a re-analysis of the deposited data

How the results depend on the processing

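Of 90 values recomputed under alternatives, 59 stayed within their counting interval or within 1.5 times the main count, 31 moved, and no direction was at issue, since no test was run. With the first 5% of the body there were 504 members (2.75% of single-gene peaks), a median fold of 3.85, 57.5% under 1 kb from the start and 65.6% of genes with a peak in the last 10%. With the first 20% there were 1595 members in 900 genes (8.70%), a median fold of 4.33, a median pileup of 16, 23.8% under 1 kb, 50.6% of genes with a peak in the last 10% and 36.6% at a fold of at least 5. With peaks paired with exactly 1 gene these shares were 10.8% of single-gene peaks, 46.6% under 1 kb and 18.5% of genes with a peak in the last 10%. A -log10 q of at least 3 gave a median fold of 4.76, 45.2% at a fold of at least 5 and 48.7% of genes with a peak in the last 10%. A pileup of at least 20 gave 403 members in 290 genes (3.36%), a median fold of 2.96, 57.1% under 1 kb, 64.5% of genes with a peak in the last 10% and 10.7% at a fold of at least 5. Apart from the numbers of peaks that the limits themselves set, the cause of these shifts was not tested. Merging neighbours within 500 bp gave 5.76% of single-gene peaks and 44.9% under 1 kb. Without the pseudocount the median fold was 5.18. With the deposited fold, 51.7% reached at least 4. A distance of 500 bp in place of 1 kb held 29.6%. The middle of the peak, RefSeq bodies, bodies over 1000 kb left out, summits before the start and the removal of Entpd1 and Etl4 moved none of these values beyond those limits. No paired analysis was possible because each arm had 1 library and the labels carry no replicate number. Depth limits single peaks: 66 members stood at the genome-wide background level, where the fold rests on RIP tags alone.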

Other observations

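There were 6 further single-gene peaks that crossed an annotated start with their summit before it, by 2 to 129 bp, and they were not counted as members. All 6 lay in short bodies of 270 to 2577 bp. The one in Gm12899 had a pileup of 15 over an input level of 0.389 (fold 11.5, -log10 q 14.6), and the one in Ak3l2-ps a pileup of 21 over 2.83 (fold 5.74). The other 4, in Gm7094, BB019430, Gm6788 and Gm7869, had folds of 2.09 to 3.52.

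Peaks with the same length, summit offset, pileup and fold as a peak elsewhere were looked for among those at least 60 bp long with a pileup of at least 20. Such a twin was found for 3 of 292 members (1.03%) and for 96 of 9330 single-gene peaks (1.03%). The peaks in BB019430 and Gm7869 had the same pileup of 10 and fold of 3.52. They were not twins, since their lengths differed, and their pileup was under that minimum.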
